A study of Homo sapiens with 15 samples.

Results

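The genes examined here encode the proteasome, the protease complex that degrades ubiquitin-tagged proteins, with its activators, its inhibitor and the chaperones that assemble it. They were taken by name, as the rows of the deposited table whose symbol begins with PSMA, PSMB, PSMC, PSMD, PSME, PSMF or PSMG followed by a number, with PSMB8 and PSMB9 left out. The rule uses names and no measured value, but it was set with earlier results of these data known. The rule matched 48 of 20375 genes, and 46 of the 48 carry a subunit name alone. The other 2, PSMC3IP and PSME3IP1, are named for partners of subunits and were counted apart. The 46 comprise 8 core alpha genes, 9 core beta genes, 6 cap ATPases, 11 non-ATPase cap subunits, 3 cap assembly chaperones, 4 activators, 1 inhibitor and 4 core assembly chaperones.

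The study treated Molm-13, a human acute myeloid leukaemia cell line of monocytic type that carries an internal tandem duplication of the FLT3 receptor gene, and sequenced polyadenylated RNA of 5 groups of 3 libraries. Control cells were kept in culture for 4 days without drug. A pair of groups received cytarabine, a cytidine analogue that blocks DNA synthesis, at 0.5 or 1 µM for 4 days. The other pair spent 3 days in cytarabine, again at 0.5 or 1 µM, and then 24 h in 1 nM FL-Fc-DM1 without cytarabine. The labels do not spell FL-Fc-DM1 out. All groups are the same cell line, labelled wild type in every library, grown in RPMI 1640 with fetal bovine serum. A protocol note calls the FL-Fc-DM1 cells THP-1, whereas the titles, the cell line field and the design text call them Molm-13. No group had FL-Fc-DM1 alone or cytarabine followed by a drug-free day, so adding FL-Fc-DM1 and withdrawing cytarabine cannot be told apart in these comparisons. Whether the 3 libraries per group are separate cultures is unstated in the labels, and the p-values measure the spread between these libraries, which may be technical.

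The libraries held 10858017 to 16965626 estimated counts. Of 9 monocytic leukaemia markers, 7 or 8 exceeded a mean of 10 CPM in each group, and their summed level was 1237 to 1262 CPM in the controls, 9747 to 10246 and 7878 to 8103 CPM under 0.5 and 1 µM cytarabine, and 16263 to 17009 and 14528 to 15004 CPM after FL-Fc-DM1. Most of that sum in treated cells was LYZ, whose mean was 379 CPM in the controls and 8624, 6597, 15421 and 13655 CPM in the treated groups in the same order. MPO went the other way, from 20.6 CPM to between 3.87 and 6.03 CPM, and FLT3 had 395 CPM in the controls, 587 and 541 CPM under cytarabine and 386 and 323 CPM after FL-Fc-DM1. The 5 B cell markers summed to at most 1.26 CPM and the 4 megakaryocyte markers to at most 1.02 CPM in any library. The 6 T and NK cell markers summed to 29.9 to 33.4 CPM in the controls and 52.4 to 69.5 CPM in the treated libraries, with opposite courses in its main genes. NKG7 had a mean of 19.7 CPM in the controls and 53.1 to 60.8 CPM in the treated groups, CD3D 11.65 CPM and 1.35 to 4.17 CPM, and CD3E at most 0.211 CPM. The 6 stromal and epithelial markers summed to 98.6 to 104.6 CPM in the controls and 249 to 322 CPM in the treated libraries, nearly all of it PECAM1, which myeloid cells also express. The 5 erythroid markers summed to 14.0 to 15.8 CPM in the controls and 5.68 to 7.30 CPM in the treated libraries. These markers moved with the treatments, and their part in the proteasome differences was not tested. In bulk RNA, fewer cells of a type and less RNA per cell cannot be told apart.

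The proteasome is built from a barrel-shaped core particle and a regulatory cap. The core stacks rings of alpha subunits, which gate the entry, around rings of beta subunits, of which PSMB5, PSMB6 and PSMB7 carry the chymotrypsin-like, caspase-like and trypsin-like proteolytic sites. In cells exposed to interferon, PSMB8, PSMB9 and PSMB10 replace them to form the immunoproteasome, the form that helps to make peptides for presentation to T cells. The cap recognises ubiquitin chains, removes them and unfolds the substrate with a ring of ATPases, PSMC1 to PSMC6. The core can also bind other activators, the PSME1 and PSME2 ring, which interferon induces, PSME3 in the nucleus, and PSME4. When proteasome activity falls short, the transcription factor NFE2L1 raises many subunit genes together through antioxidant response elements in their promoters. Proliferating leukaemia cells depend on the complex, and drugs that block PSMB5 are used against other blood cancers.

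Promoters are shown for the 5 members that rose under cytarabine at both doses and have a window, PSME1, PSME2, PSMB10, PSMB4 and PSMA5, and for 3 that fell, PSMD1 and PSMG1 among those given per library, and PSMA4, picked after its values and motif were seen. RefSeq sequence was given for 40 of the 46 members, as windows of 300 bases from 250 before to 50 after the start, and PSMD4, PSMA7, PSMG3, PSMB1, PSMB6 and PSMB7 had no entry. Each line runs 5′ to 3′ on the gene's strand. Capitals mark matches, on either strand, to the antioxidant response element core TGACNNNGC, the CCAAT box, or the interferon-stimulated response element (GAAA, then 2 bases of any kind, then GAAA), where N is any base. The windows of PSME1 (ENSG00000092010, chr14:24135944-24136243, + strand), PSME2 (ENSG00000100911, chr14:24146561-24146860, - strand), PSMB10 (ENSG00000205220, chr16:67936801-67937100, - strand), PSMB4 (ENSG00000159377, chr1:151399323-151399622, + strand), PSMA5 (ENSG00000143106, chr1:109426399-109426698, - strand), PSMA4 (ENSG00000041357, chr15:78540155-78540454, + strand, the first of its 3 windows), PSMD1 (ENSG00000173692, chr2:231056617-231056916, + strand) and PSMG1 (ENSG00000183527, chr21:39183402-39183701, - strand) are in build GRCh38.p14.
PSME1: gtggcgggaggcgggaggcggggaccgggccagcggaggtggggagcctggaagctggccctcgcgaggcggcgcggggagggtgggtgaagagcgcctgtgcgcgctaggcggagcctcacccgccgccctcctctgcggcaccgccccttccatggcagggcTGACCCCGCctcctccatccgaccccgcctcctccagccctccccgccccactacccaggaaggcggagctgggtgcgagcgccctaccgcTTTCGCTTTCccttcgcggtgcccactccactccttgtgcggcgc
PSME2: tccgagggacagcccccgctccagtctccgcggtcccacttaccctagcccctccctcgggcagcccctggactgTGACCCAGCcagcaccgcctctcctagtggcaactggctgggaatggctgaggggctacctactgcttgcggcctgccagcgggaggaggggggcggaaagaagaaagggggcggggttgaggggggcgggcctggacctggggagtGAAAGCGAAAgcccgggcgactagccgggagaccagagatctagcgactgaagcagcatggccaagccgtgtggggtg
PSMB10: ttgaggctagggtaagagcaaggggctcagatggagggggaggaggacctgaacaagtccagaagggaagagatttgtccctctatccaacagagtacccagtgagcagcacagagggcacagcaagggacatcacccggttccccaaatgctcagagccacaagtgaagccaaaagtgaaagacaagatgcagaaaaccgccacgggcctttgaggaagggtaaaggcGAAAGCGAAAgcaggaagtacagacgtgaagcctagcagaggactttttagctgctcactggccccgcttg
PSMB4: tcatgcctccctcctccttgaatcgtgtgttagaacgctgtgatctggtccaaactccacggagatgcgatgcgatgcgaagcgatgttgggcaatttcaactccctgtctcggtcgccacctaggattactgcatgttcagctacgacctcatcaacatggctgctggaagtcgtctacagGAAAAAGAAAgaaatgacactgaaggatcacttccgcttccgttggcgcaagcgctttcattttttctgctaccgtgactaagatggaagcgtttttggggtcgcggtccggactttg
PSMA5: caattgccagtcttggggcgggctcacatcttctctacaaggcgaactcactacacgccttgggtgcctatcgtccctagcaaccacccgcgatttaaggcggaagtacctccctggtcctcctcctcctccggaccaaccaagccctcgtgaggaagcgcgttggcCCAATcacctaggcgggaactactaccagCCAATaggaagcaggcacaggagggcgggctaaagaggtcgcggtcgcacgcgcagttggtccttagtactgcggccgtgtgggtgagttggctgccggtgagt
PSMA4: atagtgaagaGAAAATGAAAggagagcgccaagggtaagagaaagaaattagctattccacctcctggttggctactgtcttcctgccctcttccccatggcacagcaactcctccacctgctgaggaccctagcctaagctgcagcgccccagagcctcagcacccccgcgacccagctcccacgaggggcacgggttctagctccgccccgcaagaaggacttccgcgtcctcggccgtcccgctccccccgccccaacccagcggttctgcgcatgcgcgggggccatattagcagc
PSMD1: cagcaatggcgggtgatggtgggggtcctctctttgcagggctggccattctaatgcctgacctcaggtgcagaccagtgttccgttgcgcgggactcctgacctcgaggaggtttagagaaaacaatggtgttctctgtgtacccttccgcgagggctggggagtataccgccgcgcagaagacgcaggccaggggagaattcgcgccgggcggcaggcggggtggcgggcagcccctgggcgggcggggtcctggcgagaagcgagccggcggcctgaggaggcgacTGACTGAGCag
PSMG1: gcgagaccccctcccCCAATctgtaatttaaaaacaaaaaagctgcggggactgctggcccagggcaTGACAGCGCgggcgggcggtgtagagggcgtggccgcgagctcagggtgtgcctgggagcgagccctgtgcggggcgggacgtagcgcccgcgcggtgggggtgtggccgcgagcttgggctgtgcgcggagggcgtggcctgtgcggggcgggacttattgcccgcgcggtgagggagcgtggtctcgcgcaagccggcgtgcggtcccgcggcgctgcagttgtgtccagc
In PSME1 and PSME2 the windows hold both an antioxidant core and an interferon-stimulated element, and in PSME1 the latter reads on the opposite strand. PSMB10, PSMB4 and the PSMA4 window shown hold the interferon-stimulated element alone, and the CCAAT box and antioxidant core of PSMA4 lie in its last window, which is not shown. PSMA5 holds CCAAT boxes and no interferon-stimulated element. PSMD1 is shown for an antioxidant core and PSMG1 for an antioxidant core and a CCAAT box. The antioxidant core of PSMD1 and the interferon-stimulated match of PSME1 lie after the start.

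Across the 40 members with a window, the interferon-stimulated letters stood in 6, which is 15.0% against 4.38% of 27305 genes, and these were PSME1, PSME2, PSMB10, PSMB4, PSMA4 and PSMG4. The antioxidant core stood in 14 members, 35.0% against 16.1% of genes, and the CCAAT letters in 19, 47.5% against 39.7%. By window, the same letters stood in 3.57%, 13.3% and 34.6% of all 35116 windows. Of the 6 with the interferon-stimulated letters, 4 rose under cytarabine at both doses (PSME1, PSME2, PSMB4 and PSMB10), 1 fell at both (PSMA4) and 1 was not called at either (PSMG4). Of the 32 tested members whose windows lack them, 1 rose (PSMA5) and 20 fell at 0.5 µM. Of the 14 with the antioxidant core, 2 rose and 7 fell at 0.5 µM, and of the 24 without it, 3 rose and 14 fell. Of the 18 tested members with the CCAAT letters, 1 rose (PSMA5) and 13 fell at 0.5 µM, and of the 20 without them, 4 rose and 8 fell. Of all genes tested, 38.0% were called higher and 35.2% lower at 0.5 µM, and 39.3% and 36.6% at 1 µM. PSMD4 and PSMB1, which rose at 0.5 µM, and PSMA7, PSMG3, PSMB6 and PSMB7, which fell, have no window and drop out of these counts. Whether a motif goes with the calls was not tested. A match describes letters in this window. It is not evidence of a bound site, and a window with no match says nothing about the factor.

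In control cells nearly all of these genes were expressed, at levels that differed several-fold within each ring. Levels of different genes are compared in TPM, the share of transcripts, which corrects for gene length, as a mean of 3 control libraries ± SD. Among the core alpha genes, PSMA4 (336 ± 3.63 TPM) was highest and PSMA5 (80.5 ± 0.497 TPM) lowest, a ratio of 4.17, although the rings take these subunits in equal number. Among the core beta genes, PSMB1 (286 ± 10.4 TPM) stood 7.68 times above PSMB2 (37.3 ± 0.799 TPM). The cap ATPases were the most even class with more than 3 genes, from PSMC4 (54.8 ± 2.29 TPM) to PSMC6 (129.9 ± 4.03 TPM), a ratio of 2.37, and the non-ATPase cap subunits ran from PSMD11 (37.2 ± 1.34 TPM) to PSMD8 (197 ± 5.26 TPM).

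For the catalytic subunits, the control level was 154 ± 2.72 TPM for PSMB7, 83.3 ± 3.63 TPM for PSMB5 and 76.6 ± 2.76 TPM for PSMB6, and the libraries of PSMB5 (79.2 to 86.0 TPM) and PSMB6 (74.1 to 79.6 TPM) overlapped. The immunoproteasome subunits were present without any drug, with PSMB8 at 119 ± 4.04 TPM, PSMB10 at 66.3 ± 4.00 TPM and PSMB9 at only 16.0 ± 1.99 TPM. Of the activators, PSME2 (179 ± 6.54 TPM) exceeded PSME3 (134 ± 1.71 TPM), PSME1 (126 ± 5.15 TPM) and PSME4 (36.3 ± 0.845 TPM). The assembly chaperones were low, from PSMG4 (28.6 ± 1.76 TPM) to PSMG2 (71.9 ± 1.46 TPM). PSMA8 and PSMB11, the alpha subunit of testis and the beta subunit of thymus, were the exceptions: PSMA8 had 6 counts in 4 of 15 libraries, and PSMB11 had 0 counts, where a count of 0 allows up to 3 counts, or 0.230 CPM at the median depth. They were not tested, and 44 members were.

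The transcripts of the complex as a whole made up less of the RNA under cytarabine and more of it after FL-Fc-DM1. Summed over the 46 genes, the TPM was 5170, 5071 and 5117 in the 3 controls, 4561, 4532 and 4510 under 0.5 µM cytarabine, and 4340, 4333 and 4338 under 1 µM. After FL-Fc-DM1 the sums were 5126, 5194 and 5104 following 0.5 µM, and 4898, 4973 and 4910 following 1 µM. The cytarabine libraries were all below the controls, those at 1 µM below those at 0.5 µM, and both FL-Fc-DM1 groups above every cytarabine library. The sums after 0.5 µM overlapped those of the controls, and those after 1 µM did not. As a share of all estimated counts, the genes took 0.387% to 0.393% in the controls, 0.346% to 0.351% and 0.330% to 0.333% under the lower and higher dose, and 0.395% to 0.402% and 0.372% to 0.379% after FL-Fc-DM1.

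**Figure D1:**
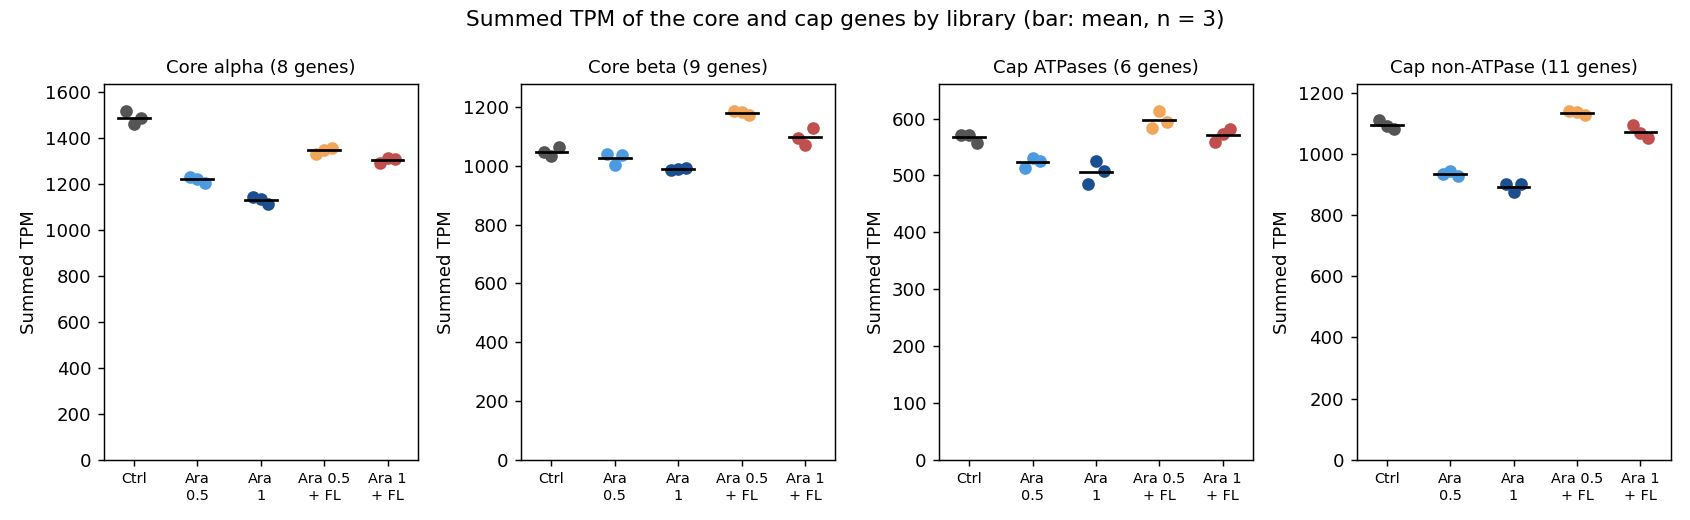
Summed TPM (vertical axis) of the core alpha, core beta, cap ATPase and non-ATPase cap genes in each library, by group (horizontal axis), with a bar for the mean of 3; Ara is cytarabine in µM and FL is FL-Fc-DM1. The core alpha sum fell from a mean of 1490 in the controls to 1220 and 1130 under cytarabine, while the core beta sum went from 1048 to 1026 and 989.

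The core alpha sum went from 1490 ± 26.8 TPM (SD, n = 3) in the controls to 1220 ± 14.2 and 1130 ± 16.4 TPM under 0.5 and 1 µM cytarabine and 1347 ± 12.9 and 1305 ± 12.3 TPM after FL-Fc-DM1. The core beta sum was 1048 ± 15.0 TPM in the controls, 1026 ± 21.6 and 989 ± 2.55 TPM under cytarabine, and 1180 ± 5.78 and 1097 ± 29 TPM after FL-Fc-DM1. The beta sum thus lay above the control sum after FL-Fc-DM1 while the alpha sum lay below it, without overlap in any of those 4 contrasts. The non-ATPase cap sum was 1094 ± 14.71 TPM in the controls, 935 ± 7.21 and 892 ± 15.7 TPM under cytarabine, and 1135 ± 6.03 and 1072 ± 22.0 TPM after FL-Fc-DM1. These sums are descriptions with no test.

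The first comparison asks what cytarabine did to the proteasome genes of Molm-13 cells. More members fell than rose: 9 and 10 of 15 core genes, 8 and 9 of 17 cap ATPase and non-ATPase genes and 5 of 7 assembly chaperones fell at the lower and higher dose, as did PSME3, PSME4 and the inhibitor PSMF1, while PSME1, PSME2, PSMD4, PSMA5, PSMB4 and PSMB10 rose at both doses. At 0.5 µM, 7 of 44 tested members were called higher and 25 lower at an adjusted p under 0.05, and 12 were not called. Of all 12356 genes tested, 73.2% were called, 38.0% higher and 35.2% lower. The members' share called in either direction (72.7%) was near that background, whereas the share called lower (56.8%) was above it and the share called higher (15.9%) below it. The median log2 change of the members was -0.19, beside 0.03 for all genes. At 1 µM, 6 members were called higher and 27 lower, against a background of 75.9% called, 39.3% higher and 36.6% lower, with a median log2 change of -0.27 beside 0.03. Changes were modest: 6 members at 0.5 µM and 10 at 1 µM differed from the controls by over 1.5-fold.

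**Figure D2:**
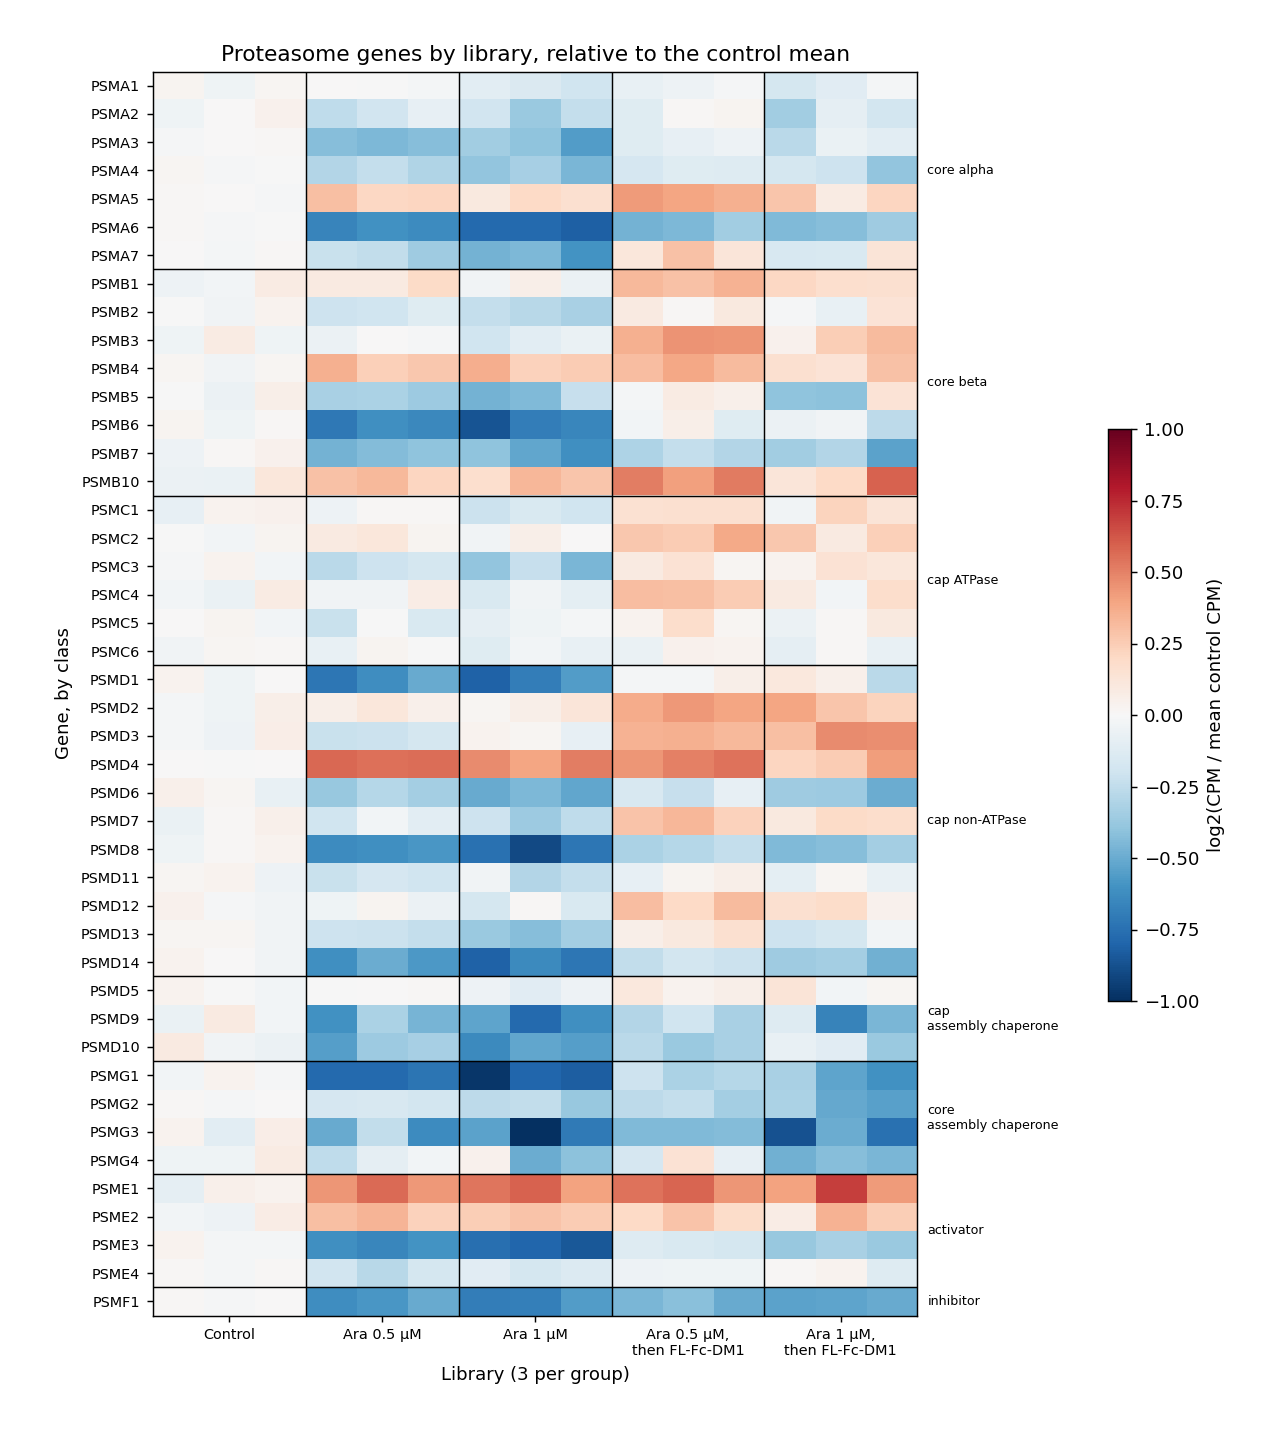
Each row is a tested member, grouped by class, and each column a library, 3 per group; colour gives log2 of the library's CPM over the mean control CPM. Red rows under cytarabine (PSMA5, PSMB4, PSMB10, PSMD4, PSME1, PSME2) stand among mostly blue ones, and many blue rows turn pale or red after FL-Fc-DM1.

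Within the core, 4 of 15 tested genes were called higher and 9 lower at 0.5 µM, and 3 and 10 at 1 µM. Most alpha genes fell, with 5 of 7 lower and 1 higher at 0.5 µM and 6 lower and 1 higher at 1 µM. PSMA6, an alpha ring subunit, had 165, 163 and 164 CPM in the controls (counts scaled to normalised library size, used within a gene), 104, 107 and 106 CPM at 0.5 µM and 95.7, 95.7 and 93.2 CPM at 1 µM. Each dose group lay below the controls, and the higher dose below the lower. The log2 change of PSMA6 was -0.63 ± 0.04 (SE, adjusted p = 1.9e-13) and -0.79 ± 0.04 (adjusted p = 2.0e-15). PSMA5 was the alpha gene that rose, with log2 changes of 0.24 ± 0.05 and 0.15 ± 0.05 (adjusted p = 6.1e-05 and 0.0052).

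All 3 constitutive catalytic subunits fell. PSMB6, the caspase-like subunit, had 34.9, 33.2 and 34.5 CPM in the controls, 20.8, 22.3 and 21.9 CPM at 0.5 µM and 18.8, 21.2 and 21.8 CPM at 1 µM. No cytarabine library came near a control, and the doses overlapped. Its log2 change was -0.66 ± 0.08 at 0.5 µM (adjusted p = 3.9e-08) and -0.74 ± 0.08 at 1 µM (adjusted p = 5.1e-09). PSMB7, the trypsin-like subunit, had 79.1, 82.4 and 84.4 CPM in the controls, 59.2, 60.7 and 61.9 CPM at 0.5 µM and 62.0, 57.2 and 53.6 CPM at 1 µM. Again both doses lay below the controls and overlapped each other, with log2 changes of -0.44 ± 0.06 and -0.51 ± 0.06 (adjusted p = 3.1e-07 and 2.3e-08). PSMB5, the chymotrypsin-like subunit and the main site of clinical proteasome inhibitors, had 46.4, 44.5 and 48.4 CPM in the controls, 37.0, 37.3 and 36.2 CPM at 0.5 µM and 33.5, 34.3 and 39.7 CPM at 1 µM. Its log2 changes were -0.34 ± 0.09 and -0.38 ± 0.09 (adjusted p = 0.0027 and 8.7e-04), and the groups did not overlap the controls.

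PSMB10, the immunoproteasome counterpart of PSMB7, went the other way. Its level was 33.7, 33.6 and 38.0 CPM in the controls, 43.0, 43.9 and 40.8 CPM at 0.5 µM and 39.5, 44.3 and 42.5 CPM at 1 µM. Every cytarabine library exceeded every control, by a log2 change of 0.28 ± 0.09 (adjusted p = 0.0062) and 0.26 ± 0.09 (adjusted p = 0.0094). The call at 1 µM did not hold without replicate 2 of the 1 µM group, where the log2 change was 0.20 and the adjusted p 0.0694. In TPM, the ratio of PSMB10 to PSMB7 was 0.410 to 0.453 in the controls, 0.663 to 0.734 at 0.5 µM and 0.641 to 0.800 at 1 µM, without overlap with the controls.

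The other immunoproteasome subunits, which the naming rule leaves out, are given beside it. PSMB9, the counterpart of PSMB6, had 6.85, 9.02 and 7.82 CPM in the controls, 15.6, 15.1 and 15.0 CPM at 0.5 µM and 12.7, 15.7 and 15.5 CPM at 1 µM, a rise of 0.95 ± 0.12 and 0.89 ± 0.12 on the log2 scale. PSMB8, the counterpart of PSMB5, had 71.4, 75.6 and 71.4 CPM in the controls, 74.2, 75.5 and 76.0 CPM at 0.5 µM and 58.2, 59.0 and 68.4 CPM at 1 µM. It was not called at 0.5 µM (log2 change 0.05 ± 0.06) and fell at 1 µM (-0.24 ± 0.06, adjusted p = 0.0014). In CPM, the 3 inducible subunits thus took different courses under cytarabine. The TPM ratio of PSMB8 to PSMB5, which fell, was 1.335 to 1.552 in the controls and 1.831 to 1.922 at 0.5 µM. At 1 µM it was 1.554 to 1.591, barely above the control range. PSMB4 and PSMB1, beta subunits without a proteolytic site, rose as well, PSMB4 at both doses and PSMB1 at 0.5 µM. PSMB4 had 106, 102 and 106 CPM in the controls, 134, 124 and 126 CPM at 0.5 µM and 134, 123 and 125 CPM at 1 µM, all above the controls, with log2 changes of 0.29 ± 0.05 and 0.28 ± 0.05 (adjusted p = 5.4e-06 and 7.0e-06). PSMB1 had log2 changes of 0.12 ± 0.04 (adjusted p = 0.012) and -0.01 ± 0.04 (adjusted p = 0.81).

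In the cap, few ATPase genes passed the test, and the share of other subunits called was near that of all genes. At 0.5 µM 1 of 6 ATPase genes was called lower (PSMC3) and 5 were not called, with a median log2 change of -0.01, and at 1 µM 2 were lower (PSMC1 and PSMC3), with a median of -0.09. Of the 11 non-ATPase genes, 7 were lower and 1 higher at each dose, with medians of -0.20 and -0.27. Of all genes, 73.2% and 75.9% were called at the lower and higher dose, 35.2% and 36.6% lower. The ATPase share called was 16.7% and 33.3%. The non-ATPase share was 72.7% at each dose, with 63.6% lower. That the classes differ was not tested. PSMD8, a lid subunit, had 120.2, 125 and 127 CPM in the controls, 80.4, 81.3 and 83.0 CPM at 0.5 µM and 74.0, 66.4 and 75.1 CPM at 1 µM. Its groups were stepwise and did not overlap, with log2 changes of -0.61 ± 0.05 and -0.79 ± 0.05 (adjusted p = 1.4e-11 and 6.9e-14). PSMD14, the deubiquitinase that strips ubiquitin chains from the substrate, had 86.7, 84.9 and 82.9 CPM in the controls, 55.5, 60.2 and 56.9 CPM at 0.5 µM and 48.4, 54.6 and 51.3 CPM at 1 µM. It too fell at both doses without overlap, by log2 changes of -0.56 ± 0.05 and -0.73 ± 0.05 (adjusted p = 5.7e-10 and 3.8e-12). PSMD1, a large scaffold subunit of the cap base, had 84.1, 79.7 and 82.4 CPM in the controls, 49.7, 53.2 and 57.8 CPM at 0.5 µM and 46.8, 50.8 and 55.7 CPM at 1 µM. Its cytarabine libraries all lay below the controls, with log2 changes of -0.62 ± 0.07 and -0.69 ± 0.07 (adjusted p = 4.1e-08 and 5.4e-09), whereas PSMD2, the other large scaffold subunit, was not called at either dose (0.07 ± 0.04 and 0.06 ± 0.04).

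PSMD4, a ubiquitin receptor of the cap, had the largest rise of any member at 0.5 µM. Its level was 77.2, 76.9 and 77.3 CPM in the controls, 115, 113 and 114 CPM at 0.5 µM and 107, 102 and 110.2 CPM at 1 µM. The groups were far apart relative to their spread, with log2 changes of 0.56 ± 0.05 and 0.46 ± 0.05 (adjusted p = 1.1e-10 and 3.8e-09). It was the only cap gene called higher at either dose.

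The activators divided into those that rose and those that fell. PSME1 had 61.9, 68.4 and 67.4 CPM in the controls, 89.5, 97.5 and 88.8 CPM at 0.5 µM and 95.4, 99.1 and 87.3 CPM at 1 µM. PSME2, its ring partner, had 77.2, 75.9 and 82.5 CPM in the controls, 96.8, 99.3 and 91.9 CPM at 0.5 µM and 92.9, 95.6 and 93.6 CPM at 1 µM. For both genes every cytarabine library exceeded every control, with log2 changes for PSME1 of 0.48 ± 0.07 and 0.51 ± 0.07 (adjusted p = 4.0e-07 and 1.2e-07) and for PSME2 of 0.29 ± 0.06 and 0.26 ± 0.06 (adjusted p = 5.4e-05 and 1.8e-04). PSME3, the nuclear activator, had 199, 192 and 192 CPM in the controls, 127, 124 and 128 CPM at 0.5 µM and 115, 112 and 108 CPM at 1 µM. It fell in steps without overlap, with log2 changes of -0.62 ± 0.04 and -0.80 ± 0.04 (adjusted p = 5.7e-14 and 2.7e-16). The TPM ratio of PSME1 to PSME3 was 0.880 to 0.974 in the controls, 2.09 to 2.32 at 0.5 µM and 2.30 to 2.5 at 1 µM. PSME4, the large monomeric activator, had 142, 138 and 141 CPM in the controls, 123, 116 and 124 CPM at 0.5 µM and 130.1, 125 and 128 CPM at 1 µM, with log2 changes of -0.21 ± 0.04 and -0.14 ± 0.04 (adjusted p = 7.6e-05 and 0.0047).

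PSMF1, which binds the core and inhibits it in vitro, was added to the members given per library after its values were seen. It had 169, 167 and 169 CPM in the controls, 109.6, 112 and 119 CPM at 0.5 µM and 104, 105 and 114 CPM at 1 µM. Both dose groups lay well below the controls, with log2 changes of -0.57 ± 0.04 and -0.65 ± 0.04 (adjusted p = 4.2e-12 and 2.7e-13). The chaperones that assemble the core fell in 3 of 4 genes at each dose. PSMG1, the partner of PSMG2 in alpha ring assembly, had the largest fall of all members, from 37.2, 38.8 and 37.6 CPM in the controls to 22.1, 22.1 and 22.8 CPM at 0.5 µM and 19.3, 21.9 and 21.4 CPM at 1 µM. No library overlapped the controls, and the log2 changes were -0.76 ± 0.08 and -0.87 ± 0.08 (adjusted p = 1.5e-09 and 1.2e-10). PSMG2 fell by 0.17 and 0.30, PSMG3 by 0.46 and 0.73, and PSMG4 was not called. Of the cap chaperones, PSMD9 (-0.46 ± 0.10 and -0.63 ± 0.10) and PSMD10 (-0.41 ± 0.08 and -0.57 ± 0.08) fell and PSMD5 (0.00 ± 0.05 and -0.07 ± 0.05) was not called.

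**Figure D3:**
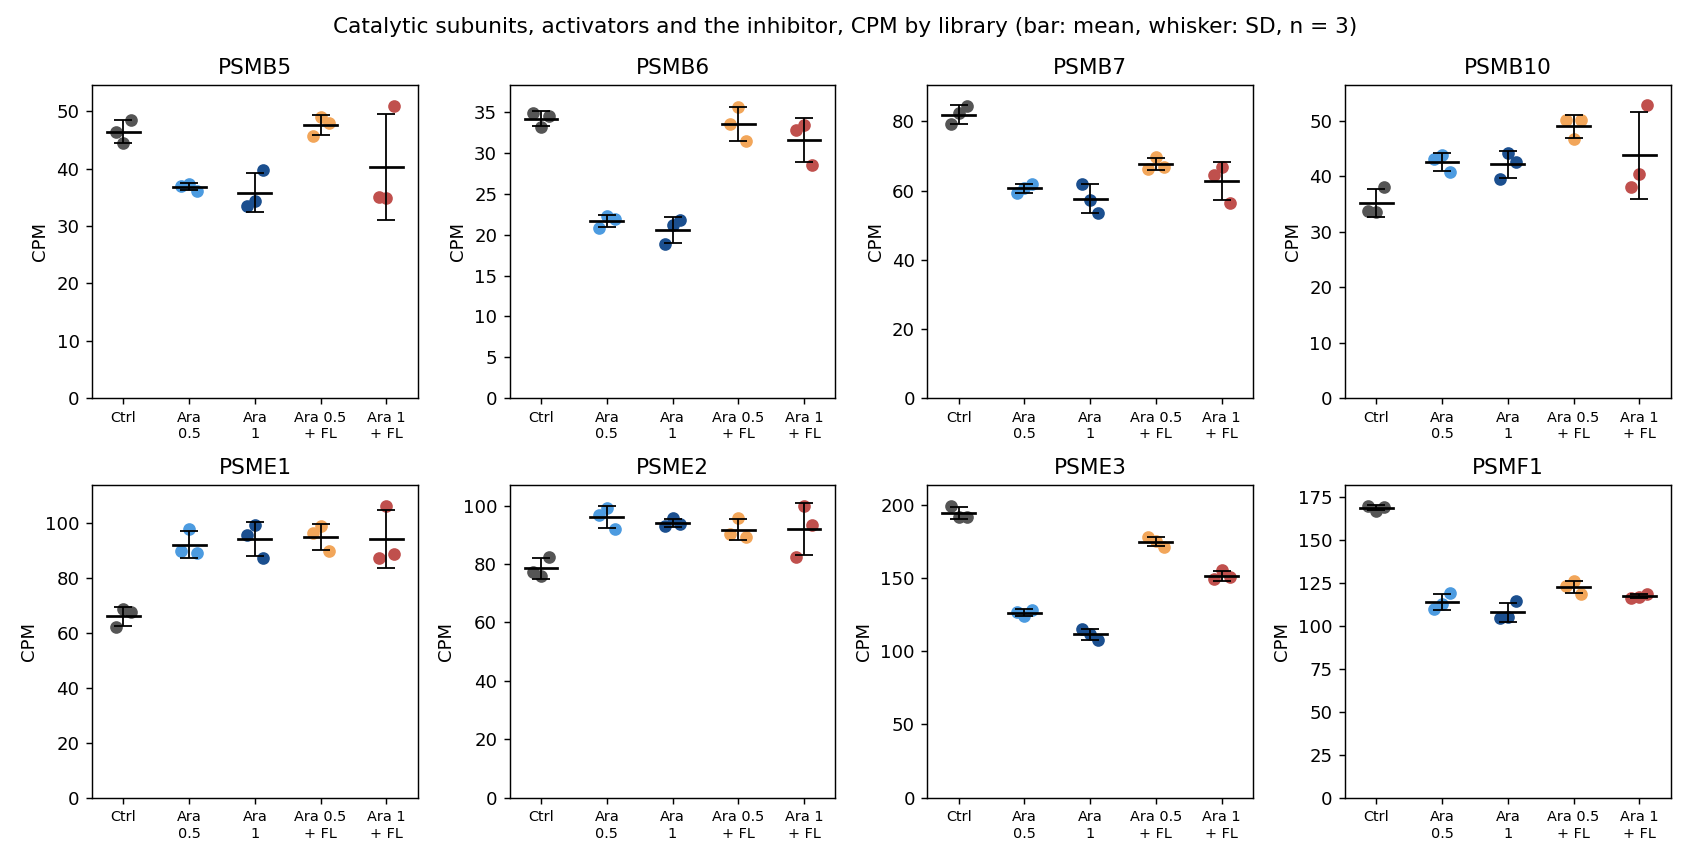
CPM (vertical axis, from 0) of the catalytic subunits, PSME1 to PSME3 and PSMF1 in each library by group, with bars for the mean and whiskers for the SD of 3 libraries. PSMB10, PSME1 and PSME2 sit above the controls under cytarabine and PSMB5, PSMB6, PSMB7, PSME3 and PSMF1 below, and the third library of FL-Fc-DM1 after 1 µM stands apart in PSMB5 and PSMB10.

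The second comparison asks what followed when cells went from cytarabine to FL-Fc-DM1 instead of staying in cytarabine. The change ran one way: many core and cap genes were higher and hardly any lower. After 0.5 µM, 30 of 44 members (68.2%) were called higher and 0 lower by edgeR, against a background of 44.7% of all genes called, 22.0% higher and 22.8% lower. DESeq2 and both limma fits also called 0 lower, and no member was lower at an unadjusted p under 0.05. After 1 µM, 25 members (56.8%) were called higher and 1 lower, against 45.7% called, 23.5% higher and 22.2% lower. The median log2 change of the members was 0.20 and 0.18, beside -0.02 and -0.00358 for all genes. This contrast shares the cytarabine libraries with the first, so a low value there enters both, and the changes below are given side by side without a measure of their agreement.

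Counts for the cap and the core are given first, and the difference between them was not tested. After 0.5 µM, 15 of 17 cap ATPase and non-ATPase genes were higher (median log2 change 0.30), and so were 11 of 15 tested core genes (median 0.20). After 1 µM the counts were 12 of 17 and 8 of 15, with medians of 0.24 and 0.17. PSMD1 had 80.9, 81.1 and 85.4 CPM with FL-Fc-DM1 after 0.5 µM and 88.2, 85.0 and 68.2 CPM after 1 µM, against the cytarabine values given above. Every FL-Fc-DM1 library exceeded every cytarabine library of its dose, and the log2 changes were 0.62 ± 0.08 and 0.66 ± 0.08 (adjusted p = 2.2e-07 and 1.2e-07). PSMD3, a lid subunit, had 74.4, 74.9 and 76.8 CPM under 0.5 µM cytarabine and 110.4, 111 and 108 CPM with FL-Fc-DM1 after it. At 1 µM it had 88.8, 87.9 and 81.9 CPM under cytarabine and 107, 120.04 and 119.9 CPM after FL-Fc-DM1. The groups were apart at both doses, with log2 changes of 0.55 ± 0.05 and 0.42 ± 0.05 (adjusted p = 2.7e-09 and 1.5e-07), and in the controls PSMD3 had 85.8, 83.7 and 90.7 CPM.

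The ATPase PSMC3 had 53.2, 55.0 and 52.6 CPM in the controls, 44.5, 46.4 and 47.4 CPM under 0.5 µM cytarabine and 40.7, 45.7 and 39.1 CPM under 1 µM. With FL-Fc-DM1 it had 57.0, 59.4 and 54.3 CPM after 0.5 µM and 54.9, 59.2 and 58.1 CPM after 1 µM. It rose at both doses without overlap, by 0.30 and 0.46 on the log2 scale (adjusted p = 2.6e-04 and 1.5e-06). PSMD8, at 99.5, 102 and 105 CPM after 0.5 µM and 91.2, 92.4 and 98.3 CPM after 1 µM, rose by 0.33 and 0.39. PSMD14 had 71.6, 74.8 and 73.2 CPM after 0.5 µM and 66.2, 66.9 and 60.8 CPM after 1 µM. All of its FL-Fc-DM1 libraries were above those kept in cytarabine, with log2 changes of 0.35 ± 0.06 and 0.33 ± 0.06 (adjusted p = 1.2e-05 and 3.3e-05). PSMD4, in contrast, had 105, 109 and 112 CPM after 0.5 µM and 89.3, 92.0 and 103 CPM after 1 µM. It was not called at 0.5 µM (-0.06 ± 0.05) and was the 1 member called lower at 1 µM (-0.17 ± 0.05, adjusted p = 0.008), where the third FL-Fc-DM1 library overlapped the cytarabine range. That call was lost without replicate 1 (adjusted p = 0.0541) or replicate 2 (adjusted p = 0.0611) of FL-Fc-DM1 after 1 µM.

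**Figure D4:**
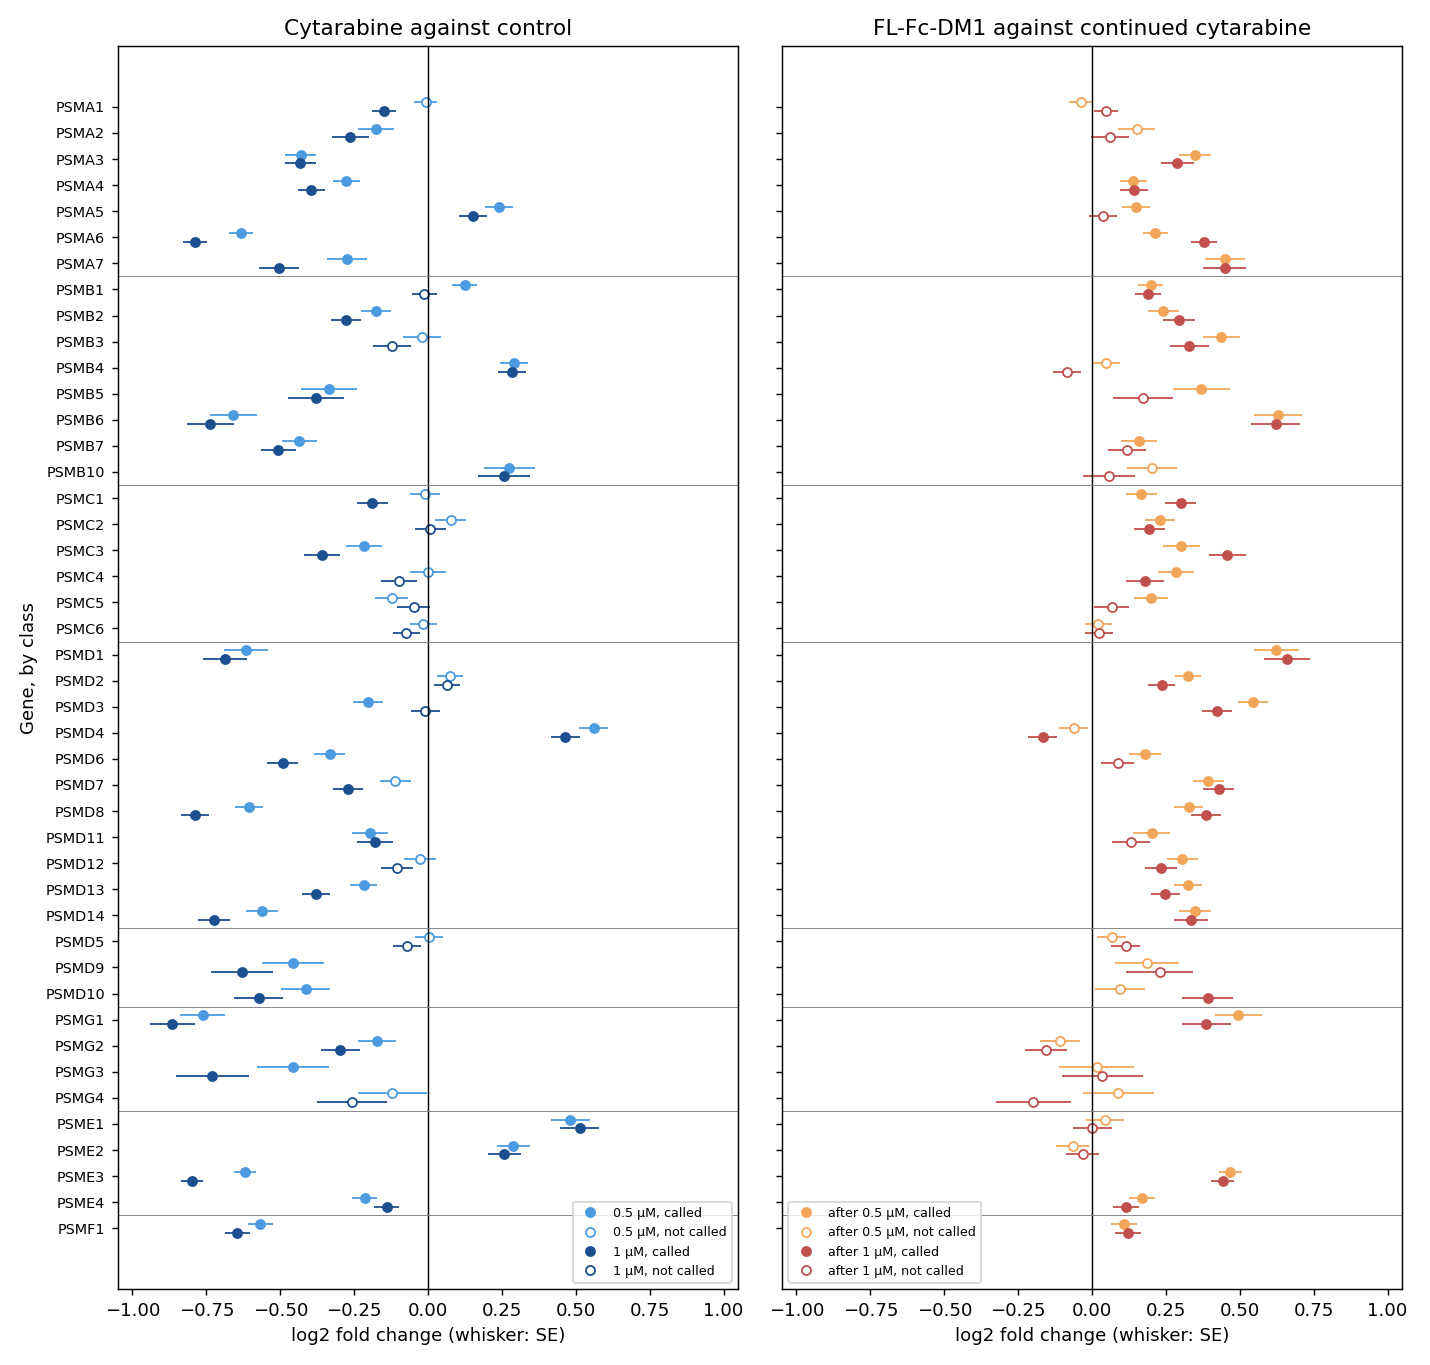
Log2 fold change (horizontal axis) of each tested member, with whiskers for the SE; the left panel sets each cytarabine dose against the controls and the right panel FL-Fc-DM1 against continued cytarabine at each dose. Filled points passed an adjusted p under 0.05; the left panel holds 25 and 27 members called lower and the right panel 30 and 25 called higher.

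Among the catalytic subunits, PSMB6 had the largest rise after 0.5 µM. It reached 33.5, 35.7 and 31.5 CPM after 0.5 µM and 32.8, 33.5 and 28.5 CPM after 1 µM, every library above the cytarabine groups. The log2 changes were 0.63 ± 0.08 and 0.62 ± 0.08 (adjusted p = 5.8e-07 and 9.9e-07). PSMB5 had 45.7, 49.1 and 48.0 CPM after 0.5 µM, a rise of 0.37 ± 0.10 (adjusted p = 0.0029) without overlap. After 1 µM it had 35.1, 35.0 and 51.0 CPM, of which the third library alone stood above the cytarabine range, and was not called (0.17 ± 0.10, adjusted p = 0.17). Without the third library the log2 change was -0.02, and without the first or the second it was 0.26 (adjusted p = 0.0414) and 0.28 (adjusted p = 0.0322), so 1 library decided the value. PSMB7 had 66.4, 69.6 and 66.9 CPM after 0.5 µM, a rise of 0.16 ± 0.06 (adjusted p = 0.038), and 64.6, 66.9 and 56.4 CPM after 1 µM (0.12 ± 0.06, not called). The call after 0.5 µM was lost with limma on log2 TPM, with library totals as the only scaling, without replicate 1 or 2 of the 0.5 µM group (adjusted p = 0.0799 and 0.0539), and without replicate 2 of FL-Fc-DM1 after 0.5 µM (adjusted p = 0.0741). At 1 µM it was called without replicate 1 of the 1 µM group (adjusted p = 0.0369) or replicate 3 of its FL-Fc-DM1 group (adjusted p = 0.0106).

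PSMB10 had 50.1, 46.7 and 50.2 CPM after 0.5 µM, where all libraries exceeded those in cytarabine but the log2 change of 0.20 ± 0.09 missed the threshold (adjusted p = 0.055). It passed without replicate 2 of that FL-Fc-DM1 group (adjusted p = 0.0364), by DESeq2 (0.0495) and in 5 other fits. After 1 µM it had 38.1, 40.4 and 52.7 CPM, again with the third library apart, and was not called (0.06 ± 0.09). PSMB9 fell after FL-Fc-DM1, to 7.86, 9.90 and 9.24 CPM after 0.5 µM and 9.34, 8.32 and 9.28 CPM after 1 µM, with log2 changes of -0.76 ± 0.13 and -0.70 ± 0.13 (adjusted p = 2.3e-05 and 8.2e-05). PSMB8 had 73.1, 75.0 and 81.6 CPM after 0.5 µM and 53.9, 62.7 and 59.6 CPM after 1 µM and was not called at either dose (0.03 ± 0.06 and -0.07 ± 0.07). Among the other core genes, PSMA7, an alpha subunit, rose by 0.45 and 0.45, PSMB3 by 0.44 and 0.33, and PSMA6 by 0.21 and 0.38 on the log2 scale. PSMB4, which had risen under cytarabine, was not called (0.05 ± 0.05 and -0.09 ± 0.05), at 129.8, 137 and 130.5 CPM after 0.5 µM and 117, 115 and 128 CPM after 1 µM. 

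Of the activators, PSME3 had 178, 175 and 171 CPM after 0.5 µM and 149, 155 and 150.3 CPM after 1 µM, rises of 0.47 ± 0.04 and 0.44 ± 0.04 (adjusted p = 2.8e-10 and 1.2e-09) without overlap. PSME1 had 96.2, 98.7 and 89.7 CPM after 0.5 µM and 87.1, 106 and 88.6 CPM after 1 µM. PSME2 had 90.1, 95.9 and 89.4 CPM after 0.5 µM and 82.5, 99.98 and 93.3 CPM after 1 µM. Neither was called at either dose, and their FL-Fc-DM1 libraries overlapped those in cytarabine. The log2 changes were 0.04 ± 0.07 and 0.00 ± 0.07 for PSME1 and -0.07 ± 0.06 and -0.03 ± 0.06 for PSME2 (± SE). PSME4 had 136, 136 and 136 CPM after 0.5 µM (0.17 ± 0.04, adjusted p = 0.0027) and 142, 144 and 129 CPM after 1 µM (0.11 ± 0.04, adjusted p = 0.034). In the latter the groups overlapped, and the call was lost without replicate 2 (adjusted p = 0.0714) or 3 (0.0619) of the 1 µM group or without replicate 1 (0.107) or 2 (0.104) of its FL-Fc-DM1 group. PSMF1 had 123, 126 and 119 CPM after 0.5 µM and 116, 117 and 119 CPM after 1 µM, small rises of 0.11 and 0.12 (adjusted p = 0.049 and 0.027), the first with overlap. The first call was lost without replicate 1 or 2 of the 0.5 µM group (adjusted p = 0.118 and 0.0768) or of its FL-Fc-DM1 group (0.0672 and 0.0845), with library totals as the only scaling (0.102) and with limma on log2 TPM (0.458). The second was lost without replicate 1 or 2 of the 1 µM group (0.120 and 0.0585) and in 3 other fits. The core chaperone PSMG1 had 32.8, 30.4 and 31.1 CPM after 0.5 µM and 30.3, 26.3 and 24.9 CPM after 1 µM and rose by 0.50 and 0.39 (adjusted p = 1.4e-05 and 4.2e-04). The other 3 core chaperones were not called at either dose.

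Set against the untreated controls, cells that had gone through cytarabine and then FL-Fc-DM1 had some members above, some below and some near the control level. After 0.5 µM, 17 members (38.6%) were called higher and 13 (29.5%) lower (background 69.2% called, 35.0% higher and 34.2% lower). The median log2 change was 0.02 beside 0.02 for all genes. After 1 µM, 13 (29.5%) were higher and 17 (38.6%) lower (background 71.2% called, 35.8% and 35.4%), with a median of -0.05 beside 0.01. The members' share called in either direction, 68.2% after each dose, was near that of all genes. The cap ATPase and non-ATPase genes had 9 higher and 3 lower of 17 after 0.5 µM and 6 and 4 after 1 µM. All 4 core chaperones were lower after 1 µM, and 3 of them after 0.5 µM. PSMF1 remained 0.46 and 0.52 below the controls on the log2 scale (adjusted p = 2.9e-10 and 3.2e-11), PSMA6 0.42 and 0.41, PSMD8 0.28 and 0.40, and PSMB7 0.28 and 0.39. PSMB6 (-0.03 ± 0.08 and -0.12 ± 0.08) and PSMD1 (0.01 ± 0.07 and -0.03 ± 0.07) were not called against the controls at either dose.

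The members above the control level after FL-Fc-DM1 included those that had risen under cytarabine and others that had not. PSME1 stood 0.53 and 0.51 higher, PSMD4 0.50 and 0.30, and PSMB10 0.48 and 0.31. The PSMB10 call after 1 µM was lost without replicate 3 of that group (log2 change 0.15, adjusted p = 0.0858). PSMD3 stood 0.34 and 0.41 above the controls, PSMD2 0.40 and 0.30, and PSMB3 0.42 and 0.21, none of which was called higher in cytarabine against control. PSMB5 was 0.03 ± 0.09 from the controls after 0.5 µM (adjusted p = 0.76) and -0.21 ± 0.10 after 1 µM (adjusted p = 0.058). Without replicate 3 of FL-Fc-DM1 after 1 µM the second value was -0.42 (adjusted p = 2.7e-05). The TPM ratio of PSMB9 to PSMB6 was 0.173 to 0.238 in the controls, 0.579 to 0.749 across the cytarabine libraries and 0.198 to 0.366 across the FL-Fc-DM1 libraries. The ratio of PSME1 to PSME3 stayed above the controls, at 1.47 to 1.87 across the FL-Fc-DM1 libraries.

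The dose of cytarabine made a smaller difference. At 1 µM against 0.5 µM, 1 member was called higher (PSMD3, log2 change 0.20 ± 0.05, adjusted p = 0.008) and 11 lower, against a background of 19.3% of genes called, 9.08% higher and 10.3% lower. The 11 were PSMA1, PSMA6, PSMA7, PSMB1, PSMC1, PSMD6, PSMD7, PSMD8, PSMD13, PSMD14 and PSME3, with log2 changes from -0.23 ± 0.07 (PSMA7) to -0.14 ± 0.04 (PSMB1). The median of the members was -0.10 beside -0.01 for all genes. The count of 11 fell to 6, 4 and 5 without replicate 1, 2 or 3 of the 0.5 µM group, to 7 and 5 without replicate 1 or 3 of the 1 µM group, and to 3 with limma on log2 TPM. PSMD14 (-0.16 ± 0.06, adjusted p = 0.043) was among those lost, with adjusted p-values up to 0.191.

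Whether the FL-Fc-DM1 change depended on the dose before it was tested as a difference of differences. By edgeR 0 members passed in either direction, against 3.07% of all genes (2.14% higher and 0.931% lower), and 2 (PSMD10 and PSMA6) had an unadjusted p under 0.05. DESeq2 and limma with a spread per group called 0, limma on log2 TPM called 1 member higher, and leaving out replicate 3 of FL-Fc-DM1 after 1 µM gave 1 lower, PSMB5, at -0.40 (adjusted p = 0.0233) beside -0.20 ± 0.14 with it (adjusted p = 0.54). For PSMA6 the difference was 0.17 ± 0.06 (adjusted p = 0.15) and for PSMD10, a cap chaperone, 0.30 ± 0.12 (adjusted p = 0.22). The SE of these differences ran from 0.05 (PSME3) to 0.19 (PSMG3) on the log2 scale, and a p that misses the threshold does not show equal changes. Libraries of the 1 µM groups spread more: the median coefficient of variation over members was 2.74% in the controls, 3.39% and 3.48% in the 0.5 µM groups without and with FL-Fc-DM1, and 4.82% and 6.80% in the 1 µM groups.

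Other genes of the ubiquitin and proteasome pathway were taken from a list of 30, of which 30 were tested. Under cytarabine 7 of 30 were called higher and 17 lower at each dose, with median log2 changes of -0.17 and -0.20 beside 0.03 for all genes. The 80% of the list called was near the 73.2% and 75.9% of all genes, of which 35.2% and 36.6% were lower. With FL-Fc-DM1, 16 were higher and 2 lower after 0.5 µM and 14 and 2 after 1 µM, with medians of 0.13 and 0.11 beside -0.02 and -0.00358. Of all genes 44.7% and 45.7% were called in these comparisons, 22.0% and 23.5% higher. POMP, which matures the core, had 129, 134 and 132 CPM in the controls, 104, 103 and 101 CPM under 0.5 µM cytarabine and 96.3, 90.5 and 95 CPM under 1 µM. With FL-Fc-DM1 it had 123, 123 and 132 CPM after 0.5 µM and 103, 113 and 111 CPM after 1 µM. It fell by 0.36 and 0.49 under cytarabine and rose by 0.30 and 0.21 with FL-Fc-DM1, on the log2 scale. NFE2L1, the transcription factor of subunit genes, had 153, 159.6 and 159 CPM in the controls, 94.5, 97.8 and 92.1 CPM at 0.5 µM and 95.9, 99.6 and 94.3 CPM at 1 µM. Its log2 changes were -0.73 ± 0.04 and -0.70 ± 0.04 (adjusted p = 4.2e-14 and 7.1e-14), and with FL-Fc-DM1 it rose by 0.20 and 0.15. NFE2L1 activity is known to depend on the processing of its protein, which these data do not measure.

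ADRM1, a ubiquitin receptor of the cap, fell by 0.45 and 0.37 under cytarabine and rose by 0.52 and 0.39 with FL-Fc-DM1, while SEM1, a small lid subunit, was not called in any of these contrasts (-0.09 ± 0.11, -0.18 ± 0.11, 0.21 ± 0.11 and 0.01 ± 0.12). Under cytarabine the smallest p-values of the list belonged to RAD23B and UBQLN1, which shuttle ubiquitin-tagged proteins to the proteasome, to the proteasome adaptor ECPAS, and to NFE2L1. RAD23B had 275, 269 and 277 CPM in the controls, 132, 139.9 and 131 CPM at 0.5 µM and 140.1, 127 and 123 CPM at 1 µM, log2 changes of -1.03 ± 0.05 and -1.07 ± 0.05 (adjusted p = 1.7e-16 and 5.5e-17). UBQLN1 fell by 0.81 and 0.79 and ECPAS by 0.60 and 0.60, whereas UBQLN2, a relative of UBQLN1, rose by 0.81 and 0.64. With FL-Fc-DM1 the smallest p-values included VCP, the ATPase that extracts ubiquitin-tagged proteins, UBE3C, a ubiquitin ligase on the proteasome, and UBA1, the main ubiquitin-activating enzyme. VCP had 172, 167 and 172 CPM in the controls, 216, 217 and 216 CPM under 0.5 µM cytarabine and 196, 207 and 203 CPM under 1 µM. With FL-Fc-DM1 it had 289, 299 and 279.6 CPM after 0.5 µM and 262, 268 and 264 CPM after 1 µM. It was higher in each of the 4 contrasts, by 0.35, 0.25, 0.42 and 0.39. UBE3C rose by 0.43 and 0.34 and UBA1 by 0.26 and 0.20 with FL-Fc-DM1, and UBQLN2 fell by 0.51 and 0.34.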

How the data were processed

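Polyadenylated RNA of 15 libraries was measured, 3 in each of 5 groups, taken from the sample labels. Trizol extraction, oligo(dT) enrichment, random priming, PCR and a HiSeq2500 run are given in the labels' protocols. Tools listed in the submitters' processing notes, without saying what each did, are edgeR, DESeq2, HISAT2, fastp 0.18.0 and StringTie 1.3.1. The build, annotation, counter and strand setting were not given in the sources used here. Reads of overlapping or antisense genes therefore cannot be told apart. The authors deposited estimated counts and TPM per gene and library, and 14.5% to 16.5% of the counts above 0 were not whole (tolerance 0.01). Pseudogene copies may share reads: GENCODE 29 names 32 pseudogenes of 12 members, and 0 of them are in the table.

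Counts were rounded to whole numbers and fitted once over all 5 groups with edgeR 4.0.16 in R 4.3.3 (filterByExpr, TMM scaling, quasi-likelihood test), with Benjamini-Hochberg adjustment over the 12356 genes tested and calls at an adjusted p under 0.05. The filter used a minimum count of 10 and a minimum total of 15. An SE is the log2 change divided by the square root of the F statistic, without sign. CPM uses TMM-scaled library sizes. TPM is used for levels between genes, since it is per length. limma 3.58.1 on log2(TPM + 1), limma with a spread per group, DESeq2 1.42.0, other scalings and filters, a replicate block and leaving out each library were alternatives, and the limma fit with a spread per group was chosen after seeing the data. The edgeR fit was tested on simulated data. Counting floors cover counting error only, since PCR reads are not independent molecules.

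The members and lists were chosen with earlier results of these data known. Values in every library are given for PSMB5, PSMB6, PSMB7, PSMB10, PSME1 to PSME4, PSMD14 and, in each of the 4 main comparisons, the 3 called members with the largest rise and the 3 with the largest fall. PSMF1 was added after its values were seen. From the pathway list, up to 4 genes with the smallest p per comparison are named, with POMP, NFE2L1, ADRM1 and SEM1.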

Additional observations from a re-analysis of the deposited data

How the results depend on the processing

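The 144 log2 changes of the 18 members given per library, PSMF1 included, were recomputed as 2124 alternative values. Of these, 2063 kept their side of the threshold, 41 lost a call, 20 gained one, and 0 changed sign with a call in either fit. Changes of sign where neither fit gave a call are counted among the 2063. The count of members lower at 1 µM than at 0.5 µM cytarabine was 11, and 3 with limma on log2 TPM. The count of members with a higher FL-Fc-DM1 change after 1 µM was 0, and 1 (PSMA6) with limma on log2 TPM. The cause was not tested.

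Leaving out each library in turn gave the following ranges of members called higher and lower. For 0.5 µM against control they were 6 to 7 and 24 to 27, and for 1 µM against control 4 to 6 and 27 to 30, where 4 came without replicate 2 of the 1 µM group. For FL-Fc-DM1 against cytarabine they were 28 to 31 and 0 to 0 at 0.5 µM, and 23 to 27 and 0 to 2 at 1 µM, where 2 came without replicate 3 of the 1 µM group and 0 without replicate 2 of its FL-Fc-DM1 group. Between the doses they were 1 to 1 and 4 to 9, and for the difference of differences 0 to 0 and 0 to 1. For FL-Fc-DM1 against control they were 15 to 16 and 12 to 13 after 0.5 µM, and 11 to 13 and 14 to 19 after 1 µM.

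The groups share replicate numbers, but the labels give these no further meaning. To look for pairing, the deviations of each library's log2 CPM from its group mean were correlated between libraries of different groups. The correlations ran from -0.0623 to 0.0799 over 30 same-numbered pairs and from -0.055 to 0.0654 over 60 pairs with different numbers. For 5 of 15 libraries the highest correlation was with a same-numbered library. With the replicate block, members called higher and lower were 7 and 26 at 0.5 µM against control, 6 and 27 at 1 µM, 32 and 0 and 25 and 1 for FL-Fc-DM1 against the lower and higher dose, 1 and 11 between doses, 0 and 0 for the difference of differences, and 17 and 13 and 14 and 18 for FL-Fc-DM1 against control.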

Other observations

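The 2 matched rows that are not subunits gave 1 further change. PSMC3IP, a partner of meiotic recombinases named for its binding to PSMC3, had mean levels of 5.44 CPM in the controls, 2.20 and 2.72 CPM under 0.5 and 1 µM cytarabine, and 2.22 and 3.11 CPM with FL-Fc-DM1 after them. Its log2 change under cytarabine was -1.31 at 0.5 µM (edgeR adjusted p = 1.1e-04) and -1.0 at 1 µM (adjusted p = 0.0012). PSME3IP1, a binding partner of PSME3, was not called in any comparison.

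Counts and TPM gave different signs for some members, with the widest gaps in PSMD5, a cap assembly chaperone. At 1 µM cytarabine against control its log2 change was -0.07 from counts and 0.28 from mean TPM, and for FL-Fc-DM1 against 1 µM it was 0.11 and -0.22. For PSMC2, a cap ATPase, the values at 1 µM against control were 0.01 from counts and -0.21 from TPM. Over all members and the 4 main comparisons the counts minus TPM difference ran from -0.356 to 0.338. Neither PSMD5 nor PSMC2 was called at 1 µM against control in the count fit. Other changes of sign had smaller gaps, such as PSME2 for FL-Fc-DM1 against 1 µM, at -0.03 from counts and 0.07 from TPM.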
